A study of Mus musculus with 12 samples.

Results

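The 38 genes described here are imprinted genes of the mouse, that is, genes for which expression from the maternal and the paternal copy is known to differ in at least some tissue or stage. They were taken from a fixed list of symbols, and each of the 38 matched 1 row among the 55401 genes of the count files. RNA-seq was made from 12 libraries, each from a pool of 10 embryos at the 8-cell stage. All embryos came from superovulated B6129F1 females aged 3 to 5 weeks mated to B6CBAF1 males, and all were injected as zygotes with siRNA together with 150 ng/µl H2B-EGFP, which marks the injected embryos. The control group (n = 2) received 15 µM non-targeting siRNA, Nr5a2 KD (n = 3) 5 µM siRNA against Nr5a2, and Klf5 KD (n = 3) 10 µM siRNA against Klf5. The double knockdown, dKD (n = 4), received siRNAs against both genes, at concentrations that the labels do not give. NR5A2 is an orphan nuclear receptor and KLF5 a Krüppel-like zinc finger factor, and the comparisons ask which genes depend on either factor, or on both, at the stage when the embryo runs on its own transcripts. Here that question is put to the imprinted genes. The labels do not say that libraries of a group came from separate matings or injection days, so p-values measure the spread between these pools.

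Imprinted genes carry a mark set in the egg or the sperm that survives the reprogramming of the early embryo. At canonical imprinted regions the mark is DNA methylation at a control region, which ZFP57 and TRIM28 protect after fertilization. At noncanonical ones, such as Sfmbt2, Gab1, Jade1 and Smoc1, Polycomb-type histone methylation inherited from the egg silences the maternal copy. Many of these genes act on growth of the fetus and the placenta, and paternally expressed members tend to promote growth while maternally expressed ones tend to restrain it. The counts sum both copies of each gene, both parents were F1 hybrids, and no allele was read, so a change here is a change in total RNA and says nothing of imprinting itself. In pools of whole embryos, fewer cells and less RNA per cell cannot be told apart.

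Between 6676683 and 12560926 counts fell on genes in each library. Levels are given as CPM, the count scaled by the library's effective size to the usual per-million unit, and 3 counts were 0.239 to 0.449 CPM. The targets were lower in their knockdowns. Nr5a2 was at 218 ± 10.5 CPM (SD, n = 2) in control, 32.0 ± 7.41 (n = 3) in Nr5a2 KD, 192 ± 69.9 (n = 3) in Klf5 KD and 29.7 ± 3.69 (n = 4) in dKD. Klf5 was at 456 ± 15.8 CPM in control, 111 ± 36.0 in Klf5 KD and 56.1 ± 19.5 in dKD. It was also at 140 ± 26.5 CPM in Nr5a2 KD, so the single knockdowns do not separate the factors cleanly. All 6 early embryo markers were detected, with summed levels of 237 to 254 CPM in control, 213 to 318 in Klf5 KD, 123 to 145 in dKD and 96.2 to 140 in Nr5a2 KD, so these markers moved with the groups too. Among them Klf4 (56.4 ± 13.8 CPM in control, 12.7 ± 7.29 in Nr5a2 KD, 16.2 ± 4.36 in dKD) was called lower in both, and Tead4 in Nr5a2 KD (47.9 ± 16.5 against 98.2 ± 3.51 CPM in control). The 5 markers of the 2-cell stage summed to 8.34 to 8.59 CPM in control and 8.85 to 15.7 in dKD, where Zfp352 was at 3.99 ± 0.54 against 0.571 ± 0.0491 CPM, and to 7.16 to 8.84 (Nr5a2 KD) and 7.63 to 18.9 (Klf5 KD) in the single knockdowns. The 5 oocyte transcripts, none of them called, summed to 85.5 to 87.1 CPM in control, 42.9 to 110 in dKD, 50.5 to 66.2 with Klf5 siRNA alone and 68.9 to 87.2 with Nr5a2 siRNA alone. The part of these markers in the results below was not tested. The 11 cumulus and granulosa markers summed to 0.236 to 3.30 CPM per library with Ptx3, Col1a2 and Inhba at 0, and the 4 sperm markers to 0.284 to 2.82 CPM. The share of counts from mitochondrial genes was 12.9 to 13.2% in control. It varied more in dKD (6.17 to 12.8%), Klf5 KD (4.41 to 11.8%) and Nr5a2 KD (6.18 to 12.5%).

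RefSeq promoter windows of GRCm38.p6, 250 bases before to 50 after a transcription start, were found for 31 of the 38 genes (51 windows). Shown here are the 250 bases before a start of the 3 genes on which the results below turn most and whose window holds no annotated exon. They are given 5′ to 3′ in the direction of the gene, with matches to a searched motif in capitals. The Sfmbt2 window is chr2:10370201-10370450 (plus strand), the Rasgrf1 window chr9:89909525-89909774 (plus strand) and the Igf2r window chr17:12769707-12769956 (minus strand).
Sfmbt2: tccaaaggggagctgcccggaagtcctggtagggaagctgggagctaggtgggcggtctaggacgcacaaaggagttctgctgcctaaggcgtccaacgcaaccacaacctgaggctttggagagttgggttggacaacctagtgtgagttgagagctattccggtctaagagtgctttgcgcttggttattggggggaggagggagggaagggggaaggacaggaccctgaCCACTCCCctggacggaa
Rasgrf1: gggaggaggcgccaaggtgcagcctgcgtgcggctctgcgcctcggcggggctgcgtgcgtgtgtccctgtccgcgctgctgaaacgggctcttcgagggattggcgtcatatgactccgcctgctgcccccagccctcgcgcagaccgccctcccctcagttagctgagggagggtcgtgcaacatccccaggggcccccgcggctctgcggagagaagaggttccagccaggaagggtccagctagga
Igf2r: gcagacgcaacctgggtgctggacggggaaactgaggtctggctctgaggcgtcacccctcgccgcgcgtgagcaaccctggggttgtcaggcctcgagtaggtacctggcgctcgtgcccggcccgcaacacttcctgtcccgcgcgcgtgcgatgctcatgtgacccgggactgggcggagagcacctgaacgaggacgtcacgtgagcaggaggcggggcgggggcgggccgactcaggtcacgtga

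The motifs searched on both strands were CAAGGNCA for NR5A2, GGGNGTGG for the KLF family and TGCCGC, the core of the ZFP57 site, none of which can hold another. The NR5A2 motif was in 6.71% of all 32851 windows. Among the members it was in a window of 1 gene, Ube3a, as CAAGGCCA 181 bases before the start. The KLF motif was in 14 of the 51 member windows (27.5%, 12 members), next to 17.6% of all windows, and lay 18 bases before the start of the Sfmbt2 window printed here. Another Sfmbt2 window, chr2:10372186-10372435, also without annotated exon and not printed, held none of the motifs. The Usp29 and Peg3 windows overlap, since the genes start next to each other on opposite strands, and their KLF matches are 1 site in the shared stretch. The ZFP57 core was in 12 member windows (23.5%, 11 members), next to 11.6% of all windows, and Zdbf2 held 3 copies before its upstream start. Rasgrf1 and Igf2r held none of the motifs in this stretch. These are matches of letters, and binding was not measured here.

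Before any knockdown was tested, detection was set by the control embryos, where a gene counted as detected with at least 10 counts in both libraries. By this rule 19 of 38 members were detected (50%), next to 20.1% of all genes listed. The genes listed include microRNA and predicted genes, while most members are protein coding, so these shares do not compare like with like. A further 15 members had a count in at least 1 of the 12 libraries, and 4 (H19, Magel2, Mirg and Dcn) had none in any. Of 23 paternally expressed members 11 were detected, and of 13 maternally expressed members 6, while Gnas and H13, where the expressed copy depends on the transcript, were both detected.

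In some imprinted domains the listed members had few or no counts at this stage. The counts cover annotated exons alone, so RNA from introns, and from genes of a domain that are not listed, is not included. In the Igf2-H19 domain, H19 was at 0 and Igf2, a fetal growth factor, had 4 counts in all 12 libraries together. In the Dlk1-Meg3 domain, Mirg was at 0, Dlk1 had 3 counts, Meg3 15 and Rian 56 over the 12 libraries. The noncoding RNA Airn, known for silencing Igf2r on the paternal copy in later tissues, had 8 counts in all, 7 of them in Klf5 KD. The Magel2 and Ndn genes of the Prader-Willi region had 0 and 13 counts, although Snrpn and Ube3a of the same region were among the higher members. Peg10 (7 counts), Nnat (8) and Zim1 (1) were as low, and at such counts no difference between groups was detectable. Ascl2, Mest, Plagl1, Smoc1 and Zdbf2 lay just under the rule, with 4 to 20 counts per control library.

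Among the detected members the levels in control spanned a wide range, read as CPM per kilobase of exon so that genes can be compared. Snrpn, a protein of the spliceosome's small ribonucleoproteins, was the most abundant at 135 CPM per kilobase, above 94.8% of all 11148 genes detected by the same rule. Mcts2, a retrogene inside an intron of H13, followed at 101.5 and Phlda2, which restrains growth of the placenta, at 38.8. Igf2r, the receptor that takes IGF2 to the lysosome, was at 12.5. Impact, a regulator of translation under stress, was at 4.31 CPM per kilobase and Gab1, an adaptor of receptor tyrosine kinases, at 3.43. H13, a signal peptide peptidase, was at 2.29, Sgce, a sarcoglycan, at 2.28, Cdkn1c, an inhibitor of cyclin-dependent kinases, at 2.15 and Ube3a, a ubiquitin ligase, at 1.86. Over the 19 detected members the median was 1.86 CPM per kilobase, next to 4.45 over all detected genes. The control libraries were close for Snrpn (301 and 281 CPM) and far apart for Phlda2 (60.2 and 26.7 CPM), which overlapped with control in every other group.

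**Figure D1:**
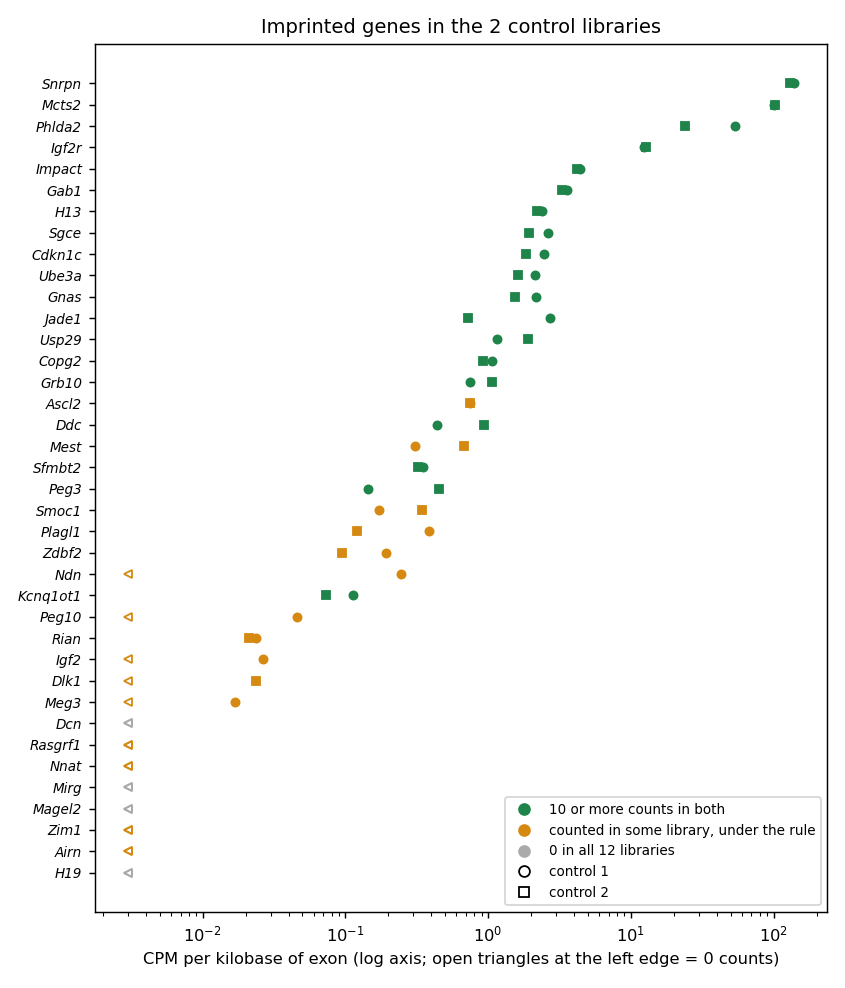
Level of each of the 38 imprinted genes in the 2 control libraries, as CPM per kilobase of exon on a log axis, with circles for control replicate 1 and squares for control replicate 2; open triangles mark 0 counts and colours the detection class. Snrpn, Mcts2 and Phlda2 lie at the top, 19 genes are detected, and H19, Magel2, Mirg and Dcn are at 0 in all libraries.

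The genes called below lie, in GRCm38 coordinates of the count files, at chr2:10370510-10595253 (Sfmbt2), chr9:89909908-90026977 (Rasgrf1), chr1:63273265-63314576 (Zdbf2), chr3:41555731-41616864 (Jade1) and chr17:12682406-12769664 (Igf2r). Chromosome 7 holds Usp29 (chr7:6730578-6967219), Ube3a (chr7:59228750-59311536) and Phlda2 (chr7:143501545-143503150). Read pairs were counted over exons without strand and shared among overlapping genes, so exon overlap sets how far a member's value is its own. Sfmbt2, Rasgrf1, Igf2r, Phlda2, Impact, Mcts2 and H13 share no exonic base with another gene, and Jade1 (3.42%) and Zdbf2 (0.782%) very little. Of the Snrpn exons, 34.1% lie in exons of other genes, among them Gm38393 and Snurf on the same strand, which stood at 147 ± 12.0 and 46.8 ± 2.41 CPM in control. Opposite genes cover 27.3% of the Ube3a exons. The longest of these, Snhg14, the RNA known to oppose paternal Ube3a in neurons, was at 142 ± 24.2 CPM in control, above Ube3a itself (38.5 ± 7.33). Zim3 lies opposite 14.3% of the Usp29 exons at 4.22 ± 1.25 CPM in control, and Gm20721 opposite 12.9% of the Gnas exons at 20.0 ± 4.74 CPM, close to Gnas itself (21.1 ± 5.04). In these shared stretches, reads from a gene and from its opposite partner cannot be told apart. All of Zim3 came to 22.5 and 37.5 counts in control, next to 138 and 258 for Usp29, while Gm20721 (154 and 124.5 counts) was near Gnas (163 and 131).

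In Nr5a2 KD, Sfmbt2 was called higher than in control and Igf2r and Usp29 lower. Rasgrf1, at 0 in control, was seen in each Nr5a2 KD library, and Zdbf2 was above control in each. A gene was called when its adjusted p was under 0.05, by edgeR's quasi-likelihood test with Benjamini-Hochberg adjustment over all genes tested, and its change at least 2-fold. Of the 22 members tested against control, 3 were called higher (13.6%) and 2 lower (9.09%). The background was 3.45% of 13262 genes called higher and 4.42% called lower, or 457 and 586 genes, and the members' shares rest on few genes. The higher count includes Rasgrf1 and Zdbf2, which passed the filter on low counts through the Nr5a2 KD libraries alone, so it is not read as a result about the members. Of the 18 tested members that did not pass through 1 group alone, 1 was called higher (5.56%) and 2 lower (11.1%). Members tested had a median log2 fold change of -0.06 and all genes one of 0.04. With library sizes set by ERCC spike-in RNA, the split over all genes was 761 higher and 90 lower, and the median of all genes moved to 0.82.

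Sfmbt2, a Polycomb protein of the noncanonical group that the placenta needs, rose most clearly. It was at 3.18 and 2.95 CPM in control and at 24.1, 14.1 and 20.5 CPM in Nr5a2 KD, so the lowest depleted library was far above both controls. The log2 fold change was 2.69 (SE 0.38, adjusted p = 0.00178), and it was called in every alternative and with each library left out. With ERCC library sizes it was 3.50, or 2.69 relative to the median of all genes.

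Rasgrf1, which loads GTP onto RAS proteins, was not seen at all in control. It had 0 counts in both control libraries, where 3 counts over the group would be 0.214 CPM, and 16, 22 and 15 counts in Nr5a2 KD (1.89, 3.03 and 1.88 CPM). Against that limit it was at least 10.5-fold higher. It passed the filter on low counts only through the Nr5a2 KD libraries, so it had to differ, and its values here and in the other comparisons are given as a description, with no p. When control replicate 1 or control replicate 2 was left out, edgeR no longer called it.

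Zdbf2, a zinc finger gene known for a role in growth after birth, was at 2.42 and 1.21 CPM in control and at 6.96, 11.4 and 7.03 CPM in Nr5a2 KD. The groups did not overlap, and the log2 fold change was 2.25 (SE 0.52). Only 1 control library reached the minimum count, so Zdbf2 too passed the filter through Nr5a2 KD alone, and its p from the filtered fit is left out. In the fit with no filter, which makes no such choice, the adjusted p was 0.00164. That fit called 1458 genes, against 1043 with the filter. It moved the adjusted p of Igf2r from 0.00199 to 3.28e-13, though that of Impact from 0.123 to 0.188. The value for Zdbf2 is therefore not on the scale of the filtered p-values of other members. In the filtered fit its call was not kept if control replicate 1, control replicate 2 or Nr5a2 KD replicate 2 was left out.

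Igf2r was the largest fall among the members called. It was at 115 and 118 CPM in control and at 30.4, 33.8 and 14.1 CPM in Nr5a2 KD, with a wide gap between the groups. The log2 fold change was -2.14 (SE 0.31, adjusted p = 0.00199). The call held with each library left out, where a fit without 1 control library takes its spread from the knockdown libraries and assumes that the lone control varies alike. With ERCC library sizes the change was -1.49 (adjusted p = 0.0502), or -2.31 relative to the median of all genes.

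Usp29, a deubiquitinase gene of the Peg3 domain, was at 20.9 and 34.6 CPM in control and at 7.78, 9.92 and 8.29 CPM in Nr5a2 KD. All depleted libraries lay below both controls, and the log2 fold change was -1.66 (SE 0.32, adjusted p = 0.00802). Without control replicate 2 it was -1.24 (adjusted p = 0.161), and with ERCC library sizes -0.88 (adjusted p = 0.211), or -1.69 relative to the median of all genes. Its opposite gene Zim3 was at 1.93 ± 0.858 CPM in Nr5a2 KD and was not called (log2 fold change -1.09, adjusted p = 0.295).

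The libraries of 12 of the 22 members tested did not overlap between Nr5a2 KD and control, next to 42.5% of all genes tested. Apart from the called genes, 3 of these had an unadjusted p under 0.05. Jade1, a chromatin reader of the noncanonical group, was at 32.0, 30.2 and 39.2 CPM against 23.2 and 6.17 CPM in control, where the control libraries themselves differed widely (log2 fold change 1.24, SE 0.44, adjusted p = 0.101). Without control replicate 1 it was called (2.46, adjusted p = 0.017), and without control replicate 2 the change was 0.58. DESeq2 called it as well (1.23, adjusted p = 0.0447). Impact was at 29.9, 35.8 and 38.6 CPM against 22.7 and 21.5 (log2 fold change 0.68, SE 0.26, adjusted p = 0.123). Peg3, a zinc finger gene that shares its promoter region with Usp29, was at 0.118, 0.964 and 1.76 CPM against 1.97 and 6.17 (log2 fold change -2.07, SE 0.87, adjusted p = 0.167), with 1 count in its lowest library. Peg3 passed the filter through control alone, where it is high, so its p is not read as a test. Its change was -1.01 without control replicate 2 and -2.90 without Nr5a2 KD replicate 3.

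**Figure D2:**
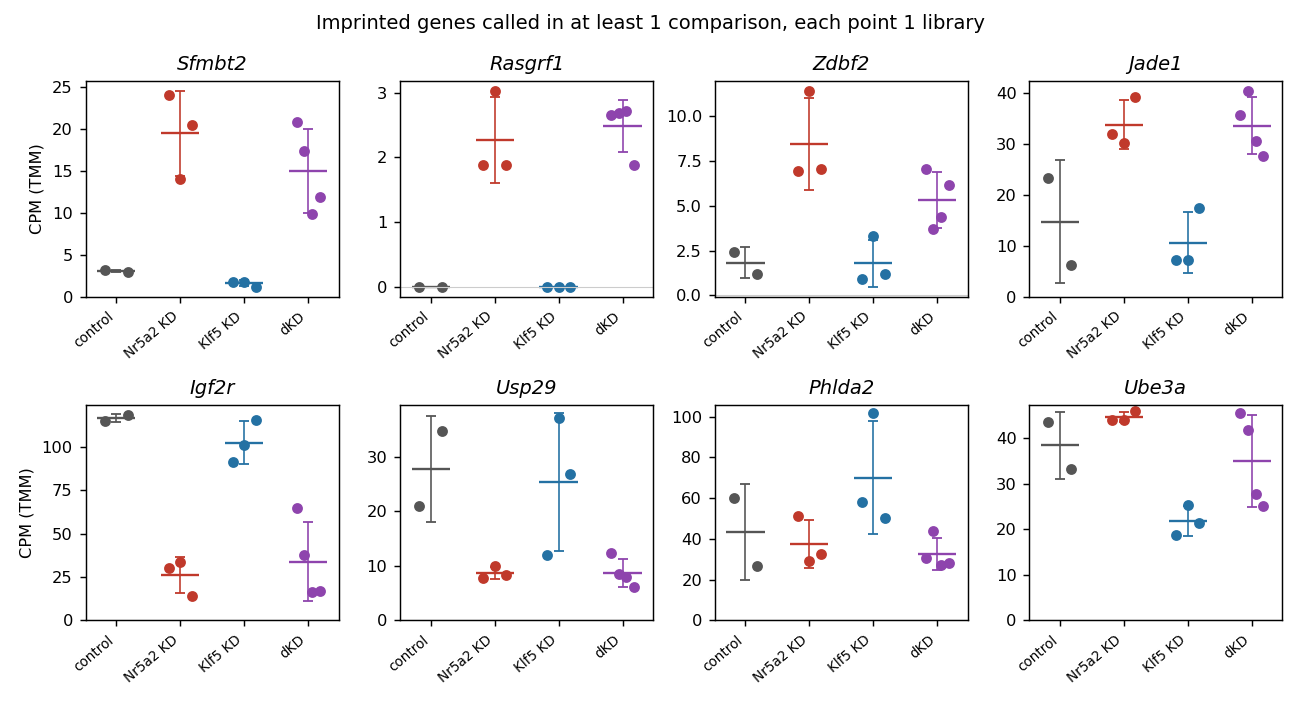
CPM of the 8 imprinted genes called in at least 1 comparison; each point is 1 library, horizontal lines are group means and error bars SD (2 control, 3 Nr5a2 KD, 3 Klf5 KD and 4 dKD libraries). Sfmbt2 and Rasgrf1 are high in Nr5a2 KD and dKD, where Igf2r and Usp29 are low, and Rasgrf1 is at 0 in control and Klf5 KD.

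In dKD, edgeR called Sfmbt2 and Rasgrf1 higher than control and Igf2r and Usp29 lower. This was 2 of 25 members tested in each direction (8.0%), next to a background of 3.38% called higher and 3.85% called lower among 13724 genes (464 and 529 genes). The split over all genes was 650 higher and 418 lower with total counts as library sizes, and 2838 higher and 178 lower with ERCC library sizes. Rasgrf1 and Zdbf2 again passed the filter through the knockdown, here dKD, alone. Of the 19 tested members that did not pass through 1 group alone, 1 was called higher (5.26%) and 2 lower (10.5%). With ERCC library sizes 6 members were called, all higher, namely Sfmbt2, Rasgrf1, Jade1, Impact, Zdbf2 and Snrpn (log2 fold change 1.22, adjusted p = 0.0408). Over the members tested the median log2 fold change was 0.08, and over all genes 0.05. The comparison shares its control libraries with the other knockdowns and rests on them. Without control replicate 1 the called members were Usp29 and Jade1, and without control replicate 2 there were none.

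Sfmbt2 was at 20.9, 17.4, 9.92 and 11.9 CPM in dKD, all above the controls (log2 fold change 2.32, SE 0.41, adjusted p = 0.00705). The adjusted p was 0.0764 without control replicate 1 and 0.0894 without control replicate 2. Rasgrf1 had 21, 19, 23 and 16 counts in dKD against 0 in control and was at least 11.6-fold higher, a description for the reason given above. In every dKD library both genes were thus above every control library.

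Igf2r was at 64.7, 37.4, 16.1 and 16.8 CPM in dKD, below the controls but spread over a 4-fold range (log2 fold change -1.76, SE 0.44, adjusted p = 0.0331). Leaving out control replicate 1 (adjusted p = 0.154), control replicate 2 (0.177), dKD replicate 2 (0.0501) or dKD replicate 4 (0.0657) ended the call, as did ERCC library sizes (0.0772). Usp29 was at 12.3, 8.51, 7.91 and 6.14 CPM, also below both controls (log2 fold change -1.64, SE 0.32, adjusted p = 0.0117). It lost its call without control replicate 2 (-1.22, adjusted p = 0.2) and with ERCC library sizes (-0.87, adjusted p = 0.083).

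Between dKD and control the libraries of 10 of the 25 members tested did not overlap, next to 36.2% of all genes tested. Beyond the called genes, 5 of these had an unadjusted p under 0.05 and missed the threshold. Impact was at 41.2, 37.7, 32.7 and 39.7 CPM (log2 fold change 0.81, SE 0.23, adjusted p = 0.0516, or 1.60 and 0.0185 with ERCC library sizes). Zdbf2 was at 7.08, 3.69, 4.37 and 6.14 CPM (1.59, SE 0.52, adjusted p = 0.0833 in the fit with no filter) and Jade1 at 35.6, 40.4, 30.6 and 27.6 CPM (1.24, SE 0.43, adjusted p = 0.0976). These genes were higher in each dKD library than in either control library, but Zdbf2 passed the filter through dKD alone. Jade1 was called with the replicate number as a block (1.61, adjusted p = 0.00396), with no filter (0.003), with ERCC library sizes (1.95, 0.0259), by DESeq2 (0.0352) and when control replicate 1 was left out (2.47, adjusted p = 0.0277). Leaving out control replicate 2 instead gave a change of 0.58 (adjusted p = 0.488). Gnas, a G protein subunit gene, was at 12.9, 10.6, 11.3 and 9.21 CPM against 24.7 and 17.6 (log2 fold change -0.90, SE 0.28, adjusted p = 0.0703), and its opposite gene Gm20721 differed alike (-0.93, adjusted p = 0.0589). Mcts2 was at 69.2, 67.6, 63.9 and 57.5 CPM against 91.5 and 93.7 (log2 fold change -0.48, SE 0.20, adjusted p = 0.153). This direction turned with ERCC library sizes (0.30), where the median of all genes moved to 0.84.

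No member was called in Klf5 KD against control by edgeR, among 22 tested, and none by DESeq2, with 2 at an unadjusted p under 0.05. The background was 0.0%, since none of 12838 genes was called by edgeR, with 1088 at an unadjusted p under 0.05 and 50 called by DESeq2. The count of members therefore says little about Klf5. Medians of the log2 fold change were -0.01 over the members tested and 0.00 over all genes, and with ERCC library sizes the median of all genes was 0.66. Ube3a was at 18.7, 25.4 and 21.4 CPM against 43.6 and 33.3 in control (log2 fold change -0.81, SE 0.29, adjusted p = 0.532), and H13 at 46.9, 29.2 and 33.9 CPM against 21.2 and 19.5 (0.86, SE 0.32, adjusted p = 0.549). Neither gene overlapped with control, and neither did 4 other members tested, in all 6 of 22, next to 26.9% of all genes tested. The genes called in Nr5a2 KD stood near or below control here. Igf2r was at 91.0, 101 and 115 CPM (log2 fold change -0.19, SE 0.26) and Sfmbt2 at 1.80, 1.77 and 1.17 CPM (-0.93, SE 0.61, adjusted p = 0.681). Rasgrf1 had 0 counts in all 3 Klf5 KD libraries, where 3 counts over the group would be 0.114 CPM, and was not tested.

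**Figure D3:**
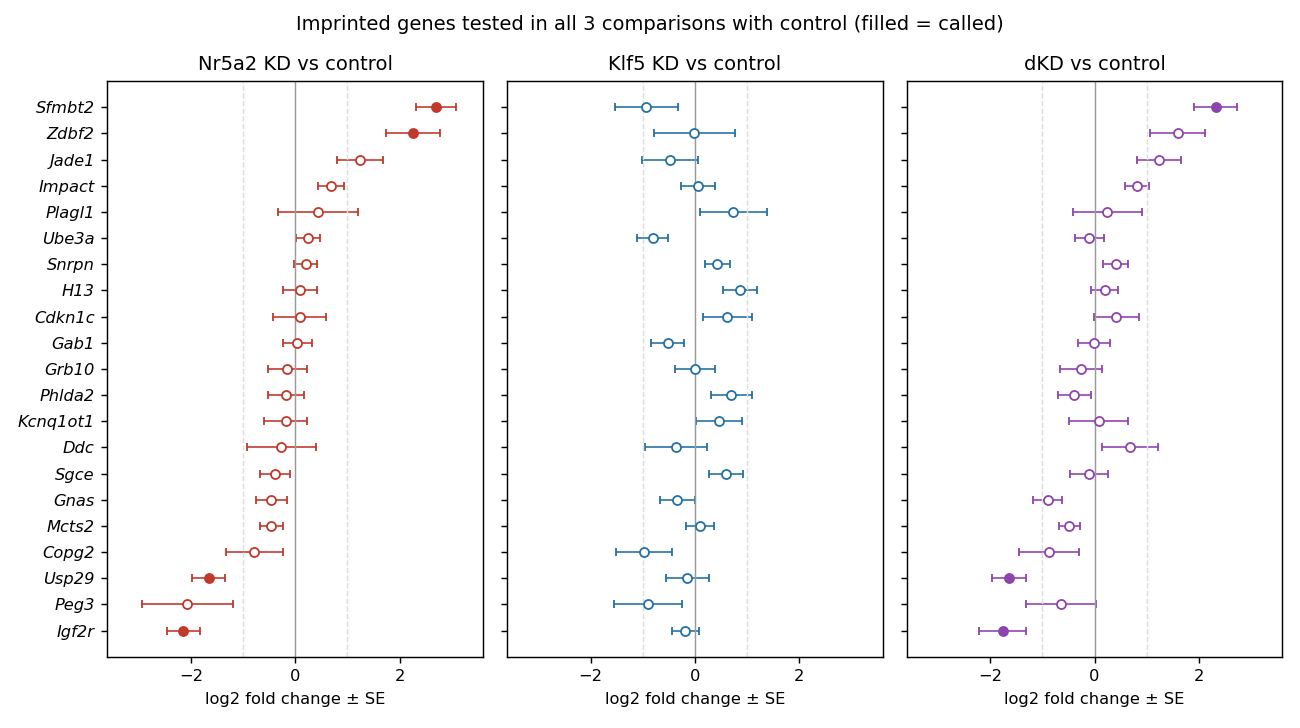
Log2 fold change and its SE for the 21 imprinted genes tested in all 3 comparisons with control, leaving out Rasgrf1, which has 0 counts in control; filled points are called and dashed lines mark a 2-fold change. Sfmbt2, Zdbf2, Usp29 and Igf2r are filled for Nr5a2 KD, Sfmbt2, Usp29 and Igf2r for dKD, and none for Klf5 KD. Zdbf2 passed the filter through Nr5a2 KD alone, so its filled point is not read as a test.

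The single knockdowns were then compared with each other, a test that needs no control library. In Klf5 KD against Nr5a2 KD, 5 of 23 members were called lower (21.7%) and 2 higher (8.70%), next to 5.6% and 5.83% of 12668 genes (710 and 738 genes). Of the 18 tested members that did not pass the filter through 1 group alone, 2 were called in each direction (11.1%). The split over all genes was 936 lower and 544 higher with total counts, and 454 lower and 271 higher with ERCC library sizes. The members tested had a median log2 fold change of 0.24, and all genes one of -0.03.

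Jade1 was lower in Klf5 KD than in Nr5a2 KD (log2 fold change -1.71, SE 0.37, adjusted p = 0.00836), and Igf2r was higher (1.96, SE 0.32, adjusted p = 0.00186). Both calls held with each library left out and under every alternative. Sfmbt2 and Zdbf2 passed the filter through Nr5a2 KD alone, so their p-values come from the fit with no filter. Sfmbt2 was lower in Klf5 KD by that fit (-3.59, SE 0.45, adjusted p = 3.55e-13), without overlap between the groups. That fit called 1941 genes, against 1448 with the filter, so its p-values are not on the scale of those of Jade1 and Igf2r. Rasgrf1, at 0 in all Klf5 KD libraries, was at least 19.7-fold higher in Nr5a2 KD. Jade1 was at 7.11, 7.09 and 17.5 CPM in Klf5 KD, below the lowest Nr5a2 KD library.

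Usp29 and Ube3a were called with less margin. Usp29 was at 12.0, 37.1 and 26.9 CPM in Klf5 KD (log2 fold change 1.53, SE 0.39, adjusted p = 0.0195), and the call was lost without Nr5a2 KD replicate 1 (0.0807), Nr5a2 KD replicate 3 (0.054) or Klf5 KD replicate 2 (0.107) and with ERCC library sizes (0.132). Ube3a was at 44.0, 44.1 and 46.0 CPM in Nr5a2 KD, above all Klf5 KD libraries (log2 fold change -1.05, SE 0.26, adjusted p = 0.0166). It fell short of the threshold without Nr5a2 KD replicate 1 (0.0581) or Nr5a2 KD replicate 2 (0.0575) and with ERCC library sizes (0.196), and of the 2-fold minimum without Klf5 KD replicate 1 (-0.94). Its opposite gene Snhg14 was at 132 ± 70.8 CPM in Klf5 KD and 142 ± 44.8 in Nr5a2 KD. Zdbf2 was at 0.899, 3.31 and 1.17 CPM in Klf5 KD (log2 fold change -2.23, SE 0.51, adjusted p = 0.000489 in the fit with no filter). In the filtered fit its change was -2.25, or -3.02 without Klf5 KD replicate 2, and its call was not kept without Nr5a2 KD replicate 2. Sgce reached an adjusted p of 0.0407 but changed just under 2-fold (log2 fold change 0.99, SE 0.30).

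The comparison of dKD with Klf5 KD uses the same Klf5 KD libraries. In dKD against Klf5 KD, 3 of 23 members were called higher (Sfmbt2, Rasgrf1 and Jade1) and 3 lower (Igf2r, Usp29 and Phlda2), 13.04% in each direction next to 5.38% and 5.41% of 12904 genes (694 and 698 genes). Peg3, Rasgrf1, Sfmbt2 and Zdbf2 passed the filter through dKD alone. Of the 19 tested members that did not pass through 1 group alone, 1 was called higher (5.26%) and 3 lower (15.8%). The split over all genes was 1068 higher and 486 lower with total counts, and 589 higher and 350 lower with ERCC library sizes. A median log2 fold change of -0.23 was found over the members tested and of 0.02 over all genes. Jade1 changed by 1.69 on the log2 scale (SE 0.35, adjusted p = 0.00717), a call that held with each library left out and under each alternative. In the fit with no filter Sfmbt2 changed by 3.20 (SE 0.44, adjusted p = 1.10e-10) and Zdbf2 by 1.55 (SE 0.53, adjusted p = 0.044). That fit called 1848 genes, against 1392 with the filter, so its p-values are not on the same scale. In the filtered fit Zdbf2 was not called (1.58, adjusted p = 0.0658). Rasgrf1 was at least 21.8-fold higher.

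The members called lower in dKD were less stable. Igf2r changed by -1.59 (SE 0.41, adjusted p = 0.0216), Usp29 by -1.53 (SE 0.37, adjusted p = 0.0172) and Phlda2 by -1.10 (SE 0.29, adjusted p = 0.023). Phlda2 was at 30.7, 43.8, 26.9 and 28.0 CPM in dKD and at 57.8, 101.7 and 50.2 CPM in Klf5 KD, without overlap. For Usp29 the lowest Klf5 KD library (12.0 CPM) lay below the highest dKD library (12.3 CPM). Without dKD replicate 4 the adjusted p was 0.0528, 0.0509 and 0.0669 for Igf2r, Usp29 and Phlda2, and without Klf5 KD replicate 2 it was 0.0639, 0.103 and 0.133. Phlda2 was also lost without dKD replicate 3 (0.0608), with total counts (0.0586) and with ERCC library sizes (0.136), and Usp29 with ERCC library sizes (0.0538). With the replicate number as a block none of the 3 was called, at 0.0854 for Igf2r, 0.0937 for Phlda2 and 0.158 for Usp29.

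Adding Klf5 siRNA to Nr5a2 siRNA changed no member past the threshold. Of 24 members tested in dKD against Nr5a2 KD, none was called by edgeR or DESeq2 and none had an unadjusted p under 0.05. The background was again 0.0%, with none of 13017 genes called by edgeR, 447 at an unadjusted p under 0.05 and 4 called by DESeq2. The differences for the called genes were -0.38 (SE 0.30) for Sfmbt2, 0.14 (SE 0.45) for Rasgrf1, 0.37 (SE 0.46) for Igf2r, 0.01 (SE 0.31) for Usp29 and -0.66 (SE 0.35) for Zdbf2 on the log2 scale. The interaction of the knockdowns, fitted over all 12 libraries, was called for none of 25 members by edgeR or DESeq2, with 1 at an unadjusted p under 0.05. Over all 14830 genes it was called for none by edgeR and for 3 by DESeq2, with 715 at an unadjusted p under 0.05.

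Grouped by the copy known to be expressed, the members called in Nr5a2 KD against control were 3 higher and 1 lower of 14 paternally expressed members tested, and 1 lower of 6 maternally expressed ones, next to 3.45% higher and 4.42% lower over all genes. In dKD they were 2 higher and 1 lower of 16, and 1 lower of 7, next to 3.38% and 3.85%. Apart from Rasgrf1 and Zdbf2, which passed the filter through the knockdown alone, the only higher call in either comparison was Sfmbt2, so nothing is read from these counts about the classes. Median log2 fold changes in Nr5a2 KD were 0.12 for paternally and -0.17 for maternally expressed members, a difference that was not tested. Among the noncanonical genes, Sfmbt2 and Jade1 differed from control in the same direction in Nr5a2 KD (2.69 and 1.24) and in dKD (2.32 and 1.24), although Jade1 missed the threshold. Gab1 was at 0.04 (SE 0.28) in Nr5a2 KD and -0.01 (SE 0.31) in dKD, and Smoc1, tested in dKD but not in Nr5a2 KD, was at 0.85 (SE 1.01).

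Libraries of the same group differed in the mitochondrial share of their counts, and Igf2r was lower where it was low, in each knockdown group. Nr5a2 KD replicate 3 (6.18%), dKD replicate 3 (6.75%) and dKD replicate 4 (6.17%) had low shares. They had the lowest Igf2r levels of all libraries, at 14.1, 16.1 and 16.8 CPM. In the other Nr5a2-depleted libraries, with shares of 10.4 to 12.8%, Igf2r was at 30.4 to 64.7 CPM. In Klf5 KD it was at 91.0, 101 and 115 CPM at shares of 4.41, 8.28 and 11.8%, so the Klf5 KD library of the lowest share was above all Nr5a2-depleted ones. Within dKD, Sfmbt2 (9.92 and 11.9 against 17.4 and 20.9 CPM) and Ube3a (27.8 and 25.03 against 41.8 and 45.5 CPM) were also lower in the libraries of low share. In Nr5a2 KD this was not so, since the library of low share had the highest Ube3a (46.0 against 44.0 and 44.1 CPM) and Sfmbt2 between the others (20.5 against 14.1 and 24.1 CPM). When only libraries with a share over 10% were used, a subset chosen after the data were seen, the same 5 members were called in Nr5a2 KD and the same 4 in dKD. These include Rasgrf1 and, in Nr5a2 KD, Zdbf2, which passed the filter through the knockdown alone, so their calls add nothing here. For Nr5a2 KD the subset is the same fit as the one without Nr5a2 KD replicate 3. In that subset Igf2r changed by -1.84 (adjusted p = 0.000326) in Nr5a2 KD and by -1.16 (adjusted p = 0.0289) in dKD. With the share as a covariate in edgeR's fit it changed by -1.56 (adjusted p = 0.00539) and -1.08 (adjusted p = 0.0257), against -2.14 and -1.76 without it. Control had no library of low share and Klf5 KD only 1 over 10%, so the subset could not be set against Klf5 KD.

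**Figure D4:**
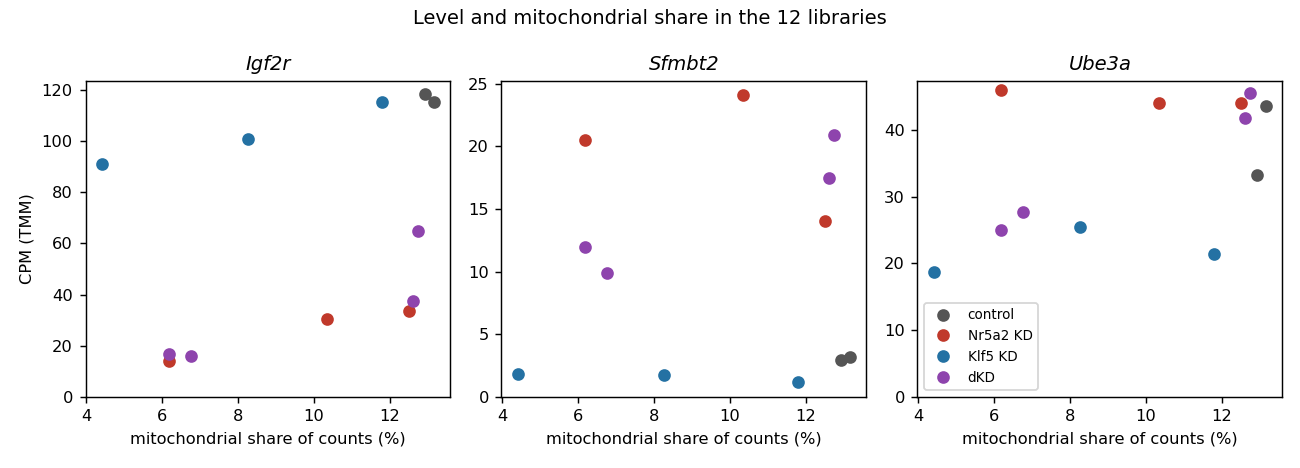
CPM of Igf2r, Sfmbt2 and Ube3a against the mitochondrial share of counts in percent, each point 1 of the 12 libraries, coloured by group. The Nr5a2-depleted libraries with shares under 7% have the lowest Igf2r, and Sfmbt2 is above 9 CPM in all 7 of these groups' libraries and below 4 CPM in control and Klf5 KD.

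Of 24 genes of imprint maintenance, 23 were tested in Nr5a2 KD against control, where 1 was lower and none higher (4.42% and 3.45% of all genes), and 23 in dKD, where 1 was lower and 1 higher (3.85% and 3.38% of all genes). None of 22 was called in Klf5 KD. The median log2 fold change of the list was -0.02 in Nr5a2 KD and 0.15 in dKD, next to 0.04 and 0.05 over all genes. The gene that fell was Jarid2, a cofactor of Polycomb repressive complex 2, at 112 ± 5.6 CPM in control, 35.4 ± 9.33 in Nr5a2 KD (log2 fold change -1.63, SE 0.26, adjusted p = 0.00357) and 38.8 ± 5.86 in dKD (-1.49, SE 0.22, adjusted p = 0.00322). Arid4a, known to act on the imprint of the Prader-Willi region, was higher in dKD (32.4 ± 8.58 against 11.5 ± 1.23 CPM, log2 fold change 1.54, SE 0.32, adjusted p = 0.0138).

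In dKD against Klf5 KD, 23 genes of that list were tested, with Dnmt3b and Arid4b called higher and Jarid2 and Dnmt3a lower (5.38% and 5.41% of all genes), and in Klf5 KD against Nr5a2 KD Jarid2 was higher and Dnmt3b lower (5.83% and 5.6% of all genes). Dnmt3b, a de novo DNA methyltransferase, was at 3.67 ± 1.15 CPM in Klf5 KD, 10.8 ± 4.03 in dKD and 13.4 ± 2.01 in Nr5a2 KD, and Dnmt3a at 38.6 ± 6.12, 16.9 ± 5.99 and 20.2 ± 3.06 CPM. In dKD against Nr5a2 KD none of 23 was called. The list was described by these counts, and it was not tested as a set.

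A second list held 30 further imprinted genes, 29 of them in the files, of which 11 could be tested in each comparison and 8 were detected in control. By edgeR's call 1 gene of the list was higher in Nr5a2 KD and in dKD (3.45% and 3.38% of all genes), Qpct, a glutaminyl cyclase gene, which is at 0 in control and passed the filter through the knockdown libraries, so its values are a description. It had 0 counts in control, 32 counts over the Nr5a2 KD libraries (at least 6.32-fold higher), 80 over the dKD libraries (at least 11.8-fold higher) and 18 over the Klf5 KD libraries. In Klf5 KD against control and in the 3 comparisons between knockdowns none of the 11 was called, next to the shares of all genes given for these comparisons above. The median log2 fold change of the list was -0.02 in Nr5a2 KD, 0.56 in Klf5 KD and 0.24 in dKD against control.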

How the data were processed

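The authors trimmed read pairs (Trim Galore 0.6.2), aligned them by STAR against GRCm38 plus the ERCC and H2B-EGFP sequences, and counted pairs over Ensembl exons with featureCounts 2.0.1, without strand and with pairs split among overlapping genes. The headers name a filtered alignment, and the filter is not given in the sources used here. As deposited, each gene has an estimated count that is not normalized, which was rounded here. The kit (SMART-seq v4) uses no molecular identifiers, so limits cover counting error only. Libraries were grouped by their titles. Of 55401 gene IDs, 55141 matched a table of Ensembl IDs and symbols, and 37 of the 38 members had the same position in GENCODE M21 (Rian did not).

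Each comparison used its own groups' libraries in edgeR 4.0.16 (R 4.3.3) with filterByExpr (minimum count 10, total 15), TMM factors and Benjamini-Hochberg adjustment, after the fit was tested on simulated data. SE is the log2 fold change over the root of F. CPM use TMM factors over 12 libraries. Alternatives were DESeq2 1.42.0, other library sizes and filters, 1 joint fit, the replicate number as a block, a mitochondrial covariate, unrounded counts, no fold minimum and each library left out. Figures used matplotlib 3.10.9.

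Same-numbered Nr5a2 KD and dKD libraries deviated together from their group means (correlations 0.153, 0.253 and 0.291), and other same-numbered pairs did not. Nr5a2 KD replicate 3 was as close to dKD replicate 4 (0.301), and Nr5a2 KD replicate 2 and dKD replicate 1 correlated at 0.117. Klf5 KD replicate 1 also correlated with dKD replicates 3 and 4 (0.212 and 0.223) and Klf5 KD replicate 3 with dKD replicate 2 (0.214). Pairing by number is therefore not established. Members were named in full if called in a comparison, if separated from control at an unadjusted p under 0.05, or if among the 10 highest per kilobase in control. Other genes named are the targets, overlap partners, called genes of the lists and genes within 200 kb of called members, which were added after the data were seen. The members and lists were chosen with earlier results of these data known. No libraries of a group agreed within sampling noise.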

Additional observations from a re-analysis of the deposited data

Results flagged for a closer look

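In 20 sets of dKD values, those of the 19 detected members and Rasgrf1, 3 held a library far from the others by Dixon's test at the 95% level, where chance gives about 1 in 20. Cdkn1c was at 8.74 CPM in dKD replicate 4 and at 4.37, 4.80 and 4.82 CPM in the others, and 30.6% of its exons lie opposite Gm44732, which was at 0.595 ± 0.559 CPM in dKD. Copg2, a coatomer subunit gene, was at 0.709 CPM in dKD replicate 3 (6 counts) and at 3.12 to 3.54 CPM in the others. Rasgrf1 was at 1.89 CPM in dKD replicate 4 (16 counts) and at 2.66 to 2.72 CPM in the others, within the range of the Nr5a2 KD libraries.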

How the results depend on the processing

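For 32 changes of single members, 340 of 361 alternative fits kept the direction and the side of the threshold. Of the others, 12 lost a call and 8 gained one (6 of them on Jade1). The direction turned in 1, Mcts2 in dKD with ERCC library sizes (0.30). Of 188 fits without a library, 157 kept both. For Nr5a2 KD against control, the subset by mitochondrial share is the fit without Nr5a2 KD replicate 3, so it stands in the 361 and in the 188. The fit without a fold minimum is the main fit, where no called gene can lose its call. Rasgrf1 and Zdbf2 are counted too. The 340 are therefore not independent checks. Where a left-out library or another scaling ended a call, the cause was not tested. The members called in Nr5a2 KD against control fell from 5 to 3 with ERCC library sizes and to 3 at a mean of at least 50 counts, where Rasgrf1 and Zdbf2 were not tested, and ranged from 2 to 5 with each library left out (2 without control replicate 2). In dKD against control they were 6 in place of 4 with ERCC library sizes and ranged from 0 to 4 with each library left out, and in dKD against Klf5 KD from 3 to 6. With the replicate number as a block, dKD against Klf5 KD had 3 members called in place of 6. Whether the numbers pair any libraries is not established, since differently numbered libraries correlated as highly as same-numbered ones. Between dKD and Nr5a2 KD, where same-numbered libraries correlated, the block changed no call. These counts include Rasgrf1 wherever it was called. The detected members were 19, or 24 with at least 5 counts and 22 with at least 1 CPM in both control libraries, and 20 and 21 in 1 control library at a time. The longer NR5A2 motif TCAAGGNCA was in 0 member windows.

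Over all genes, the calls in Nr5a2 KD against control fell from 1043 to 655 when the mitochondrial share entered as covariate and to 320 and 304 without control replicate 1 or 2. In dKD against control they went from 993 to 3016 with ERCC library sizes, 1587 without a filter, and 132 and 170 without control replicate 1 or 2. In Klf5 KD against control they went from 0 to 50 with DESeq2, 25 with ERCC library sizes, 114 without a filter, 6 in the joint fit, 253 with the block, 1 without either control replicate and 16 without Klf5 KD replicate 3. In dKD against Klf5 KD they fell from 1392 to 917 at a mean of 50 counts, 532 with the block and 911 without Klf5 KD replicate 2, and in Klf5 KD against Nr5a2 KD from 1448 to 725 with ERCC library sizes, 958 at a mean of 50 counts and 927 without Klf5 KD replicate 2. In dKD against Nr5a2 KD there were 4 with DESeq2, 20 without a filter, 1 with the covariate and 3 without dKD replicate 1, and for the interaction 3 with DESeq2 and 15 without a filter.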

Other observations

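Within 200 kb of the members called in a comparison, 35 neighbours were tested in Nr5a2 KD against control, of which 3 were called lower and 2 higher, next to 4.42% and 3.45% of all genes, and 33 in dKD, of which 3 were lower and 1 higher, next to 3.85% and 3.38%. None was called near Sfmbt2, Usp29, Phlda2 or Ube3a. The called neighbours named here were chosen after their values were seen. Genes at or near 0 in control passed the filter on low counts through the knockdown libraries and are given without a p, and the others with edgeR's adjusted p. Next to Zdbf2, Gpr1 (58.7 kb away), a receptor gene of the same imprinted domain, had 0 counts in control and 63 over the Nr5a2 KD libraries, at least 12.4-fold higher, 33 over the dKD and 15 over the Klf5 KD libraries. Platr12, a noncoding RNA 65.3 kb from Zdbf2, was at 2.31 ± 0.389 CPM in dKD and 0.134 ± 0.19 in control (2 counts), while Ino80d, 159 kb from Zdbf2, was lower in Nr5a2 KD (18.2 ± 4.57 against 59.0 ± 4.87 CPM, adjusted p = 0.00345). Next to Rasgrf1, Ctsh, which encodes a lysosomal protease, was lower in Nr5a2 KD (15.3 ± 3.64 against 37.7 ± 6.82 CPM, adjusted p = 0.0163), and Ankrd34c had 66 counts over the Nr5a2 KD libraries against 0 in control, at 2 to 38 counts a library. Near Igf2r, Wtap, a subunit of the RNA methyltransferase complex 197 kb away, was lower in Nr5a2 KD (309 ± 34.5 against 913 ± 29.6 CPM, adjusted p = 0.00146) and in dKD (339 ± 10.3 CPM, adjusted p = 0.0017). Near Jade1, 2400006E01Rik was lower in dKD (14.7 ± 5.61 against 42.2 ± 5.44 CPM, adjusted p = 0.016).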
